A study of Mus musculus with 8 samples.

Results

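The 36 genes described here encode proteins of the myelin sheath and of the mature oligodendrocyte, the cell that makes myelin in the brain. The rule lists them by name, without a threshold on their values, and 35 of them had a probe set assigned to 1 gene, among 18194 genes measured in the same way. The choline phospholipid enzyme gene Enpp2, the other gene of the list, was not analysed here. RNA of the hypothalamus was compared between 4 Nestin-Pex5-/- mice and 4 wild type mice aged 10 weeks, each on its own Affymetrix mouse expression array. In Nestin-Pex5-/- mice a Cre recombinase driven by the Nestin promoter, which is active in neural progenitors, removes a loxP-flanked part of Pex5, the import receptor for enzymes of the peroxisomal matrix. Neurons, astrocytes and oligodendrocytes descend from these progenitors, whereas microglia do not. The mice were on a Swiss Webster background. Which Cre or loxP alleles the wild type mice carried is not given in the sources used here. Nestin-Pex5-/- arrays carry the replicate numbers 7 to 10 and wild type arrays the numbers 1 to 4, with no number in common.

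Oligodendrocytes wrap axons in a compacted, lipid-rich membrane, and they clamp the wrap to the axon at paranodes on either side of each node of Ranvier. The transcription factors Olig2 and Sox10 act through the lineage, and Myrf is needed for the myelin genes to be switched on and kept on. Peroxisomes of oligodendrocytes take part in the synthesis of plasmalogens and in the breakdown of very long chain fatty acids, both of which bear on myelin lipids. The study followed myelin by staining of MBP and degraded MBP in several brain regions, and by electron microscopy of the corpus callosum. It reported loss of myelin in cerebellum, cortex, brain stem and corpus callosum. The arrays measure RNA, not protein or myelin, and ask which transcripts differ in the hypothalamus.

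Values are given on a log2 scale, on which a difference of 1 is a doubling, and levels are compared between arrays for the same probe set only. The medians of the 8 arrays lay between 6.70 and 6.84. Over all genes, 724 (3.98%) were higher and 144 (0.791%) were lower in Nestin-Pex5-/- hypothalamus at an adjusted p under 0.05. The 2 probe sets of Pex5 differed little between the genotypes, with log2 fold changes of -0.07 and 0.01 (adjusted p = 0.73 and 0.95). Since it is not known whether they lie in the removed part, they are no check of the labels. Of 14 measured microglia and macrophage genes 13 were higher in Nestin-Pex5-/- hypothalamus, with all 4 Nestin-Pex5-/- arrays above all 4 wild type arrays in each of the 14. Wild type replicate 4 stood apart in regional markers. The mean level of 9 choroid plexus genes was 8.10 to 8.72 in the Nestin-Pex5-/- arrays, against 7.45 in wild type replicate 4 and 8.70 to 9.05 in wild type replicates 1 to 3. That of 10 meningeal fibroblast genes was 7.10 to 8.44, against 8.63 in wild type replicate 4 and 7.92 to 8.18 in wild type replicates 1 to 3, and that of 8 thalamus genes was 10.10 to 10.68, against 10.49 and 9.87 to 10.20. The rule names this array, and the main comparisons below are given with and without it. It was the highest wild type array in 32 of the 35 genes, so leaving it out lowers the wild type mean of those genes.

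Most of the myelin and mature oligodendrocyte genes had a positive log2 fold change in Nestin-Pex5-/- hypothalamus, but few passed the test on all 8 arrays. Nfasc and Bcas1, 2 of the 35, were higher, against 3.98% of all genes. No gene of the set was lower, against 0.791% of all genes, and 33 did not pass. Of the 35 genes, 30 (85.7%) had a positive log2 fold change, against 38.3% of all genes. The median was 0.37, against -0.03 over all genes. Genes of 1 cell type can vary together from array to array, so the count of positive values is no test of the set. At an unadjusted p under 0.05, 20 of the 35 genes were higher in Nestin-Pex5-/- mice, against 1611 of all 18194 genes. Ndrg1 and Nkx6-2 were lower, 2 of the 35, against 1457 of all 18194 genes. With an ordinary test of each gene on its own variance and the same adjustment, 1 gene (Nfasc) was higher and 0 were lower. In 3 genes, Olig2, Nfasc and Bcas1, all 4 Nestin-Pex5-/- arrays lay above all 4 wild type arrays, as in 6.63% of all genes. In Ndrg1 all 4 lay below, as in 4.51% of all genes. Because whole tissue was measured, a change in the number of oligodendrocytes and a change in the RNA that each cell holds cannot be told apart.

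When wild type replicate 4 was left out, 17 of the 35 genes were higher in Nestin-Pex5-/- hypothalamus and 0 were lower by limma, against 5.94% and 1.82% of all genes. They were Mag, Mog, Cnp, Cldn11, Pllp, Tspan2, Gjb1, Gal3st1, Myrf, Sox10, Olig1, Olig2, Nfasc, Adamts4, Opalin, Gsn and Bcas1. A log2 fold change above 0 was then seen in 32 genes (91.4%), against 44.8% of all genes. The median was 0.48, against -0.02 over all genes. At an unadjusted p under 0.05, 27 genes were higher and 1, Ndrg1, was lower, against 2160 and 1647 of all 18194 genes. With the ordinary test of each gene on its own variance, 6 genes were higher, of which 4 were among the 17, and 0 were lower. In 23 genes all 4 Nestin-Pex5-/- arrays lay above wild type replicates 1, 2 and 3, against 11.7% of all genes.

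Wild type replicate 4 and Nestin-Pex5-/- replicate 7 held the arrays of the genotypes close together. Averaged over the 35 genes as the deviation from each gene's mean, the Nestin-Pex5-/- arrays lay at -0.03 (replicate 7), 0.18 (replicate 8), 0.29 (replicate 9) and 0.25 (replicate 10). The wild type arrays lay at -0.18 (replicate 1), -0.36 (replicate 2), -0.36 (replicate 3) and 0.20 (replicate 4). Nestin-Pex5-/- replicate 7 was thus below wild type replicate 4, and above the other 3 wild type arrays. It was the lowest array of its genotype in 28 of the 35 genes (80.0%), against 25.5% of all genes. Wild type replicate 4 was the highest of its genotype in 32 of the 35 genes (91.4%), against 52.2% of all genes. Over the 35 genes it lay a median of 0.42 above the mean of wild type replicates 1 to 3, against 0.095 over all genes. The mean of the Nestin-Pex5-/- arrays exceeded wild type replicate 4 in 20 of the 35 genes, against 5776 of all 18194 genes. In 9 of the 35, wild type replicate 4 was above every Nestin-Pex5-/- array, against 8328 of all 18194 genes. These were Gjb1, Ugt8a, Fa2h, Qdpr, Car2, Nkx6-2, Cntn2, Gpr37 and Ndrg1. The median SD of the genes within wild type was 0.27 with this array and 0.15 without it, beside 0.16 within Nestin-Pex5-/-. Nestin-Pex5-/- replicate 7 was also the lowest of its genotype in each of the 10 meningeal fibroblast genes. Whether these regional markers have a part in the order of the arrays was not tested.

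**Figure D1:**
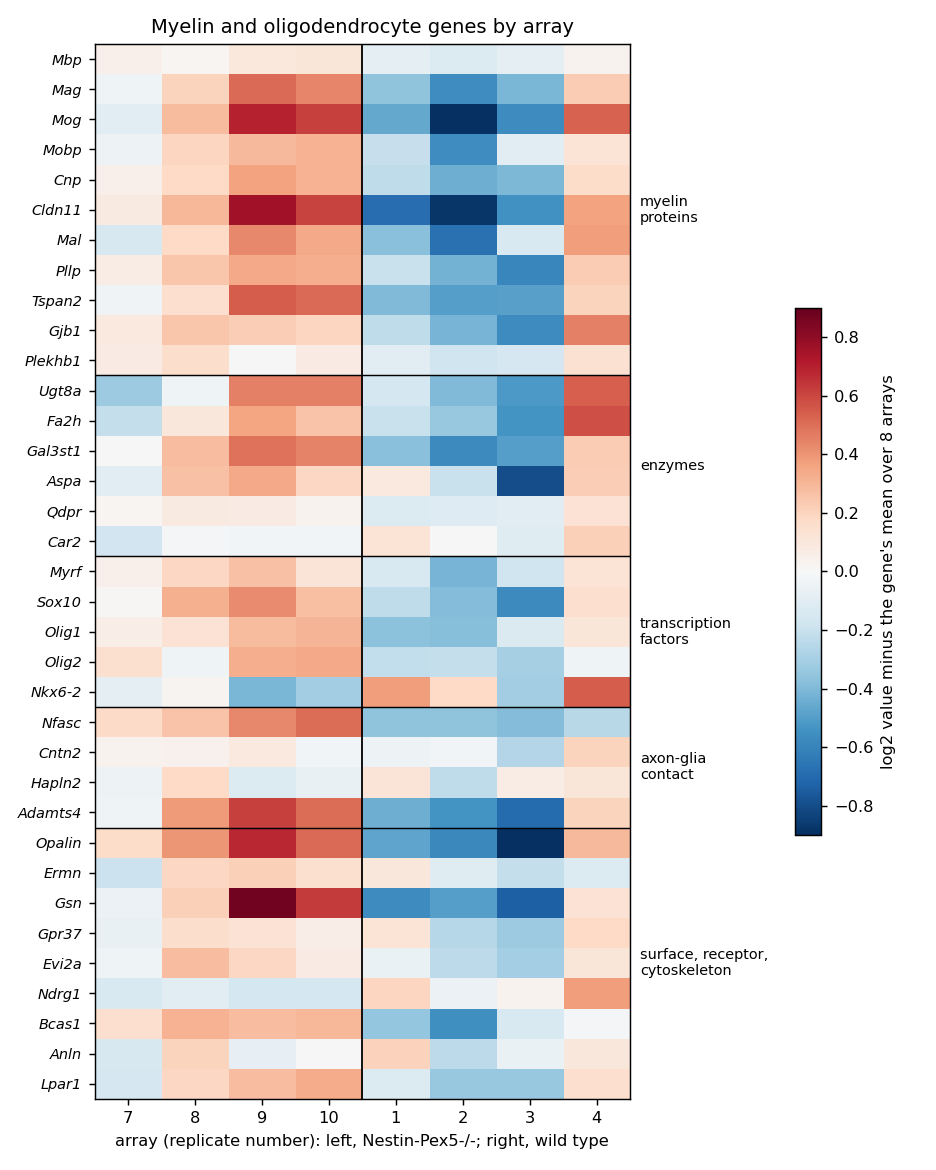
Log2 value of each of 35 genes (rows, by role) minus its mean over the 8 arrays (columns, Nestin-Pex5-/- replicates 7 to 10 on the left, wild type replicates 1 to 4 on the right). Red is above and blue below the gene's mean: wild type replicate 4 was the highest wild type array in 32 genes, and Nestin-Pex5-/- replicate 7 the lowest of its genotype in 28.

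**Figure D2:**
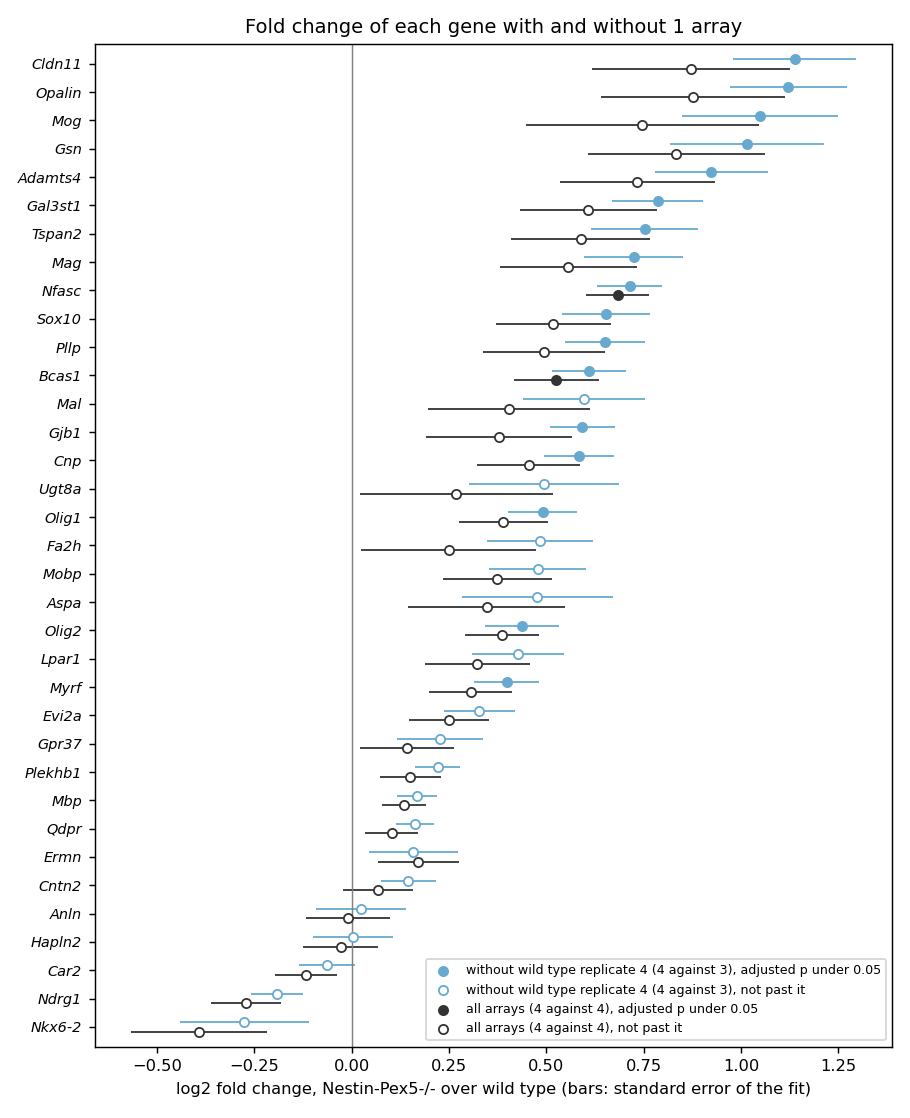
Log2 fold change of each of 35 genes in Nestin-Pex5-/- over wild type hypothalamus, with bars for the standard error of the fit, without wild type replicate 4 (light) and with all 8 arrays (dark). Filled points passed an adjusted p of 0.05: 17 genes without that array and 2, Nfasc and Bcas1, with it.

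Promoter sequences are shown for 5 of the 17 genes that were higher without wild type replicate 4. Sox10 is 1 of the 17, and whether it acts on the others was not tested. SOX factors bind cores such as ACAAAG and ACAATG, which were searched on both strands in the 250 bases before each transcription start of RefSeq (GRCm38.p6) and are in capitals below. Of the 4 starts of Gjb1 in the table, the one shown has a pair of matches, another has 1 and the other two have none. Opalin has 1 that begins 139 bases before it and Cnp 1 that begins 167 bases before it, whereas Cldn11 and Nfasc have none in this window. The stretches are chrX:101383482-101383731 on the plus strand (Gjb1), chr19:41077114-41077363 on the minus strand (Opalin), chr11:100574689-100574938 on the plus strand (Cnp), chr3:31149670-31149919 on the plus strand (Cldn11) and chr1:132707327-132707576 on the minus strand (Nfasc, the start farther upstream).
Gjb1: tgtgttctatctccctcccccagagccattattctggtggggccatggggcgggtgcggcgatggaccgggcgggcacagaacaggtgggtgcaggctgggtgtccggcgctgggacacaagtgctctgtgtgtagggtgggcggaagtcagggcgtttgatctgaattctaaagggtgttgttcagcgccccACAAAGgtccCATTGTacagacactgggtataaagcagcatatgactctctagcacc
Opalin: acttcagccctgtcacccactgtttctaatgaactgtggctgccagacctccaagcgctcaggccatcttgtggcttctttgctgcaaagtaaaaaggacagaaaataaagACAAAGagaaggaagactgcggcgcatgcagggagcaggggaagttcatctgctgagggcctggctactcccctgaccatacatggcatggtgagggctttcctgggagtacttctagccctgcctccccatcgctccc
Cnp: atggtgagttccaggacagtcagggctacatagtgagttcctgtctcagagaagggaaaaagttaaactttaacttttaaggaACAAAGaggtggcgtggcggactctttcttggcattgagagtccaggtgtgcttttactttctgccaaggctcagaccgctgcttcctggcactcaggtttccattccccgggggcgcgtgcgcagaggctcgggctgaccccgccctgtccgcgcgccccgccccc
Cldn11: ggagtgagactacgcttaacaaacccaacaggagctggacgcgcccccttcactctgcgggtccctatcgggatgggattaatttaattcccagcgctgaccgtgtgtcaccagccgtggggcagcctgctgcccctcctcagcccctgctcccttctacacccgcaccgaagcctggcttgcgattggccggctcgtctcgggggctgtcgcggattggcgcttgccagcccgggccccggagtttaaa
Nfasc: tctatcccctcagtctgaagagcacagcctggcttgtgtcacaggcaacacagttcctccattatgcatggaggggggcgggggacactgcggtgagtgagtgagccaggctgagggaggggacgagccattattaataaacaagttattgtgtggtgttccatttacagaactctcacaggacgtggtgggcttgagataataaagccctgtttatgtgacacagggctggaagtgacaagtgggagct
The table of promoters held 39 starts for 25 of the 36 genes, and 16 of these starts (41.0%), of 12 genes, had a match, against 25.2% of all 32851 starts. The E-box CAGCTG, a core that Olig factors can bind and that cannot overlap a SOX core, was in 4 of the 39 (10.3%), against 13.0% of all starts. Among the 17 genes, Mag, Cnp, Tspan2, Gjb1, Gal3st1, Olig2 and Opalin had a match, while Mog, Cldn11, Pllp, Nfasc and Gsn had none. Matches also lay in genes outside the 17, namely Mobp, Plekhb1, Hapln2, Ermn and Lpar1. Starts of a gene can lie close together and share sequence, as in Mag and Gal3st1, where the same match is counted again. A match is a stretch of letters and not a bound site. No promoter was read for Mbp, Fa2h, Car2, Enpp2, Myrf, Sox10, Olig1, Adamts4, Evi2a, Ndrg1 and Bcas1.

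Among the 11 myelin proteins none passed the test on all 8 arrays by limma, where 3.98% of all genes were higher. Every one had a positive log2 fold change (median 0.45), against 38.3% of all genes. At an unadjusted p under 0.05, 8 were higher, against 1611 of all 18194 genes. On the 7 arrays without wild type replicate 4, 7 of them rose (median 0.60), against 5.94% of all genes. Myelin basic protein, Mbp, which holds the cytoplasmic faces of the membrane together, had values of 14.54, 14.51, 14.60 and 14.61 in Nestin-Pex5-/- replicates 7 to 10, against 14.41, 14.38, 14.41 and 14.53 in wild type replicates 1 to 4. The genotypes overlapped only through wild type replicate 4, and the difference was small. Its log2 fold change was 0.13 ± 0.06 (SE of the fit, n = 4 arrays each, adjusted p = 0.27), or 0.17 without wild type replicate 4 (adjusted p = 0.093). Mbp lies near the top of the range of the arrays, whose highest values were 14.97 to 15.03. Whether its signal was saturated was not tested.

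Cnp, the cyclic nucleotide phosphodiesterase of non-compact myelin, had values of 13.76, 13.89, 14.07 and 14.02 in Nestin-Pex5-/- replicates 7 to 10, against 13.48, 13.27, 13.31 and 13.87 in wild type replicates 1 to 4. Each Nestin-Pex5-/- array was above wild type replicates 1 to 3, and wild type replicate 4 was above the lowest Nestin-Pex5-/- array. The log2 fold change was 0.45 ± 0.13 (1.37-fold, adjusted p = 0.099), or 0.58 without wild type replicate 4 (1.50-fold, adjusted p = 0.0047).

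Cldn11, which forms the tight junctions between myelin layers, differed most among the myelin proteins. It had values of 10.96, 11.18, 11.63 and 11.49 in Nestin-Pex5-/- replicates 7 to 10, against 10.19, 10.00, 10.33 and 11.24 in wild type replicates 1 to 4. Wild type replicates 1 to 3 were well below every Nestin-Pex5-/- array, and wild type replicate 4 lay within the range of the Nestin-Pex5-/- arrays. The log2 fold change was 0.87 ± 0.25 (1.83-fold, adjusted p = 0.10), or 1.14 without wild type replicate 4 (2.20-fold, adjusted p = 0.0028).

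Mog, a protein of the outermost myelin surface, had 9.69, 10.08, 10.49 and 10.41 in Nestin-Pex5-/- replicates 7 to 10, against 9.33, 8.80, 9.22 and 10.32 in wild type replicates 1 to 4. Mag, an adhesion protein of the innermost layer that faces the axon, had 11.03, 11.28, 11.58 and 11.51 in the Nestin-Pex5-/- arrays, against 10.71, 10.51, 10.66 and 11.30 in the wild type arrays. In both, wild type replicate 4 was above Nestin-Pex5-/- replicates 7 and 8, and wild type replicates 1 to 3 were below all 4 Nestin-Pex5-/- arrays. The log2 fold change of Mog was 0.75 (adjusted p = 0.24), or 1.05 without wild type replicate 4 (adjusted p = 0.014), and that of Mag was 0.56 (adjusted p = 0.13), or 0.72 without it (adjusted p = 0.0097). Tspan2, a tetraspanin of myelin, had 11.82, 12.005, 12.40 and 12.36 in Nestin-Pex5-/- replicates 7 to 10, against 11.46, 11.36, 11.36 and 12.05 in wild type replicates 1 to 4. Plasmolipin, Pllp, a membrane protein of the sheath, had 10.30, 10.49, 10.58 and 10.57 in the Nestin-Pex5-/- arrays, against 10.04, 9.81, 9.65 and 10.46 in the wild type arrays. In both, wild type replicates 1 to 3 were lowest. Wild type replicate 4 was above Nestin-Pex5-/- replicates 7 and 8 in Tspan2, and above Nestin-Pex5-/- replicate 7 only in Pllp. Without wild type replicate 4, Tspan2 rose 1.68-fold (adjusted p = 0.011) and Pllp 1.57-fold (adjusted p = 0.0057), whereas with it the adjusted p were 0.12 and 0.13.

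Connexin 32, Gjb1, which couples the layers of the sheath, also rose without wild type replicate 4, by 1.51-fold (adjusted p = 0.0031). With that array, which at 8.97 was above the highest Nestin-Pex5-/- array at 8.77, its adjusted p was 0.35. The other 4 myelin proteins did not pass in either comparison. Without wild type replicate 4 their log2 fold changes were 0.48 for Mobp, a basic protein of compact myelin (adjusted p = 0.056), 0.60 for Mal, a raft-associated proteolipid (adjusted p = 0.057), 0.22 for Plekhb1 (adjusted p = 0.052) and 0.17 for Mbp.

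The 6 measured enzymes of myelin lipids and oligodendrocyte metabolism gave no call on all 8 arrays by limma, with a median log2 fold change of 0.26. At an unadjusted p under 0.05, 1 was higher and 0 were lower, against 1611 and 1457 of all 18194 genes. Gal3st1, the sulfotransferase that makes sulfatide from galactosylceramide, had 8.57, 8.85, 9.06 and 9.02 in Nestin-Pex5-/- replicates 7 to 10, against 8.19, 7.996, 8.07 and 8.80 in wild type replicates 1 to 4. It was the only enzyme of the 6 to pass without wild type replicate 4, at 1.72-fold (adjusted p = 0.0040), and with that array its adjusted p was 0.10. The enzymes just upstream of it, Ugt8a, which makes galactosylceramide, and Fa2h, which hydroxylates its fatty acid, had log2 fold changes of 0.27 and 0.25 with all arrays, and of 0.49 and 0.48 without wild type replicate 4 (adjusted p = 0.19 and 0.072). In both genes wild type replicate 4 was above every Nestin-Pex5-/- array. Qdpr, which regenerates tetrahydrobiopterin, had 13.34, 13.41, 13.39 and 13.36 in Nestin-Pex5-/- replicates 7 to 10, against 13.20, 13.21, 13.23 and 13.45 in wild type replicates 1 to 4. Its log2 fold change was 0.10 (adjusted p = 0.49), or 0.16 without wild type replicate 4 (adjusted p = 0.088). Aspa, which cleaves N-acetylaspartate in oligodendrocytes, was at 0.35 (adjusted p = 0.43), or 0.48 without wild type replicate 4 (adjusted p = 0.20). Car2, the carbonic anhydrase of oligodendrocytes, was at -0.12 (adjusted p = 0.50), or -0.06 without that array (adjusted p = 0.69), the only negative value among the enzymes.

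Of the 5 transcription factors, 4 rose without wild type replicate 4, against 5.94% of all genes, and none passed with all 8 arrays by limma. By the unadjusted p on all 8 arrays, 4 were higher and 1 was lower, against 1611 and 1457 of all 18194 genes. Wild type replicate 4 was the highest wild type array in all 5. Olig2, which acts in oligodendrocyte precursors and mature cells, had 9.06, 8.88, 9.25 and 9.26 in Nestin-Pex5-/- replicates 7 to 10, against 8.70, 8.70, 8.62 and 8.88 in wild type replicates 1 to 4. The genotypes did not overlap, although Nestin-Pex5-/- replicate 8 (8.878) and wild type replicate 4 (8.877) were all but equal. The log2 fold change was 0.39 ± 0.10 (adjusted p = 0.053, exact permutation p = 0.029, the smallest that 4 arrays against 4 allow), or 0.44 without wild type replicate 4 (adjusted p = 0.026). Olig1 had 12.12, 12.20, 12.35 and 12.37 in the Nestin-Pex5-/- arrays, against 11.69, 11.68, 11.93 and 12.17 in the wild type arrays. Sox10 had 9.52, 9.83, 9.94 and 9.78 in the Nestin-Pex5-/- arrays, against 9.29, 9.12, 8.94 and 9.66 in the wild type arrays. In both, only wild type replicate 4 reached into the range of the Nestin-Pex5-/- arrays. Without it, Olig1 rose 1.40-fold (adjusted p = 0.010), Sox10 1.57-fold (adjusted p = 0.0084) and Myrf 1.32-fold (adjusted p = 0.023), while with all arrays their adjusted p were 0.10, 0.095 and 0.17. Nkx6-2, a homeobox factor of oligodendrocytes, had the most negative value of the 35 genes, with a log2 fold change of -0.39 ± 0.17 (adjusted p = 0.30), or -0.28 without wild type replicate 4 (adjusted p = 0.41). Its Nestin-Pex5-/- arrays ranged between 6.91 and 7.35 and its wild type arrays between 7.01 and 7.87, so the groups overlapped.

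Nfasc had the lowest adjusted p of the 35 genes. Neurofascin has a glial form that anchors the paranodal loops of myelin and neuronal forms at the node and the axon initial segment, and the probe sets were not assigned to a form. Its values were 11.08, 11.16, 11.34 and 11.41 in Nestin-Pex5-/- replicates 7 to 10, against 10.54, 10.55, 10.52 and 10.66 in wild type replicates 1 to 4. The 4 wild type arrays, replicate 4 included, lay close together and all were below the lowest Nestin-Pex5-/- array. Nfasc rose 1.61-fold (log2 fold change 0.68 ± 0.08, adjusted p = 7.6e-04, exact permutation p = 0.029), and 1.64-fold without wild type replicate 4 (adjusted p = 0.0010). Of the other 3 genes of axon-glia contact, Adamts4, a protease of the extracellular matrix made by oligodendrocytes, had 8.84, 9.26, 9.49 and 9.37 in the Nestin-Pex5-/- arrays, against 8.43, 8.34, 8.18 and 9.07 in the wild type arrays. It rose 1.90-fold without wild type replicate 4 (adjusted p = 0.0054), and with that array its adjusted p was 0.078. Cntn2, a contactin of the juxtaparanode, and Hapln2, a link protein of the nodal matrix, had log2 fold changes of 0.07 and -0.03 (adjusted p = 0.75 and 0.91), or 0.15 and 0.0028 without wild type replicate 4 (adjusted p = 0.29 and 0.99).

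Bcas1, which marks oligodendrocytes that have begun to myelinate and persists in myelin, was the other gene to rise on all 8 arrays. It had 12.62, 12.78, 12.74 and 12.77 in Nestin-Pex5-/- replicates 7 to 10, against 12.12, 11.91, 12.32 and 12.45 in wild type replicates 1 to 4. All Nestin-Pex5-/- arrays were above all wild type arrays, which spread more widely. It rose 1.44-fold (log2 fold change 0.52 ± 0.11, adjusted p = 0.023, exact permutation p = 0.029), and 1.52-fold without wild type replicate 4 (adjusted p = 0.0053). This call was lost when any 1 of Nestin-Pex5-/- replicates 8, 9 and 10 or wild type replicate 1 was left out (adjusted p between 0.073 and 0.079), whereas that of Nfasc held without each array in turn (highest adjusted p = 0.0042).

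Among the other 8 surface, receptor and cytoskeletal proteins, Opalin and Gsn rose without wild type replicate 4. Opalin, a transmembrane protein found in oligodendrocytes, had 9.90, 10.14, 10.42 and 10.25 in Nestin-Pex5-/- replicates 7 to 10, against 9.26, 9.16, 8.74 and 10.03 in wild type replicates 1 to 4. Gelsolin, Gsn, which severs actin filaments, had 10.56, 10.83, 11.48 and 11.24 in the Nestin-Pex5-/- arrays, against 10.04, 10.12, 9.88 and 10.74 in the wild type arrays. In both, wild type replicate 4 was above Nestin-Pex5-/- replicate 7 only. Opalin had the largest log2 fold change of the 35 genes on all arrays, 0.88 ± 0.24 (adjusted p = 0.076), and rose 2.18-fold without wild type replicate 4 (adjusted p = 0.0022). The log2 fold change of Gsn was 0.83 ± 0.23 (adjusted p = 0.080), and it rose 2.02-fold without that array (adjusted p = 0.015). Ndrg1, which is mutated in a demyelinating neuropathy of peripheral nerve in humans, was 1 of 5 genes with a negative log2 fold change, with values of 10.57, 10.61, 10.54 and 10.54 in Nestin-Pex5-/- replicates 7 to 10, against 10.90, 10.65, 10.73 and 11.08 in wild type replicates 1 to 4. All 4 Nestin-Pex5-/- arrays were below the lowest wild type array, by little in wild type replicate 2. Its log2 fold change was -0.27 ± 0.09 (adjusted p = 0.15, exact permutation p = 0.029), or -0.19 without wild type replicate 4 (adjusted p = 0.14). The lysophosphatidic acid receptor Lpar1 was at 0.32 and Evi2a at 0.25 (adjusted p = 0.27 and 0.26), or 0.43 and 0.33 without wild type replicate 4 (adjusted p = 0.066 and 0.067). Ermn, a cytoskeletal protein of myelin, the receptor Gpr37 and the septin scaffold Anln were at 0.17, 0.14 and -0.01 (adjusted p = 0.45, 0.60 and 0.97), or 0.16, 0.23 and 0.02 without that array (adjusted p = 0.50, 0.30 and 0.94).

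**Figure D3:**
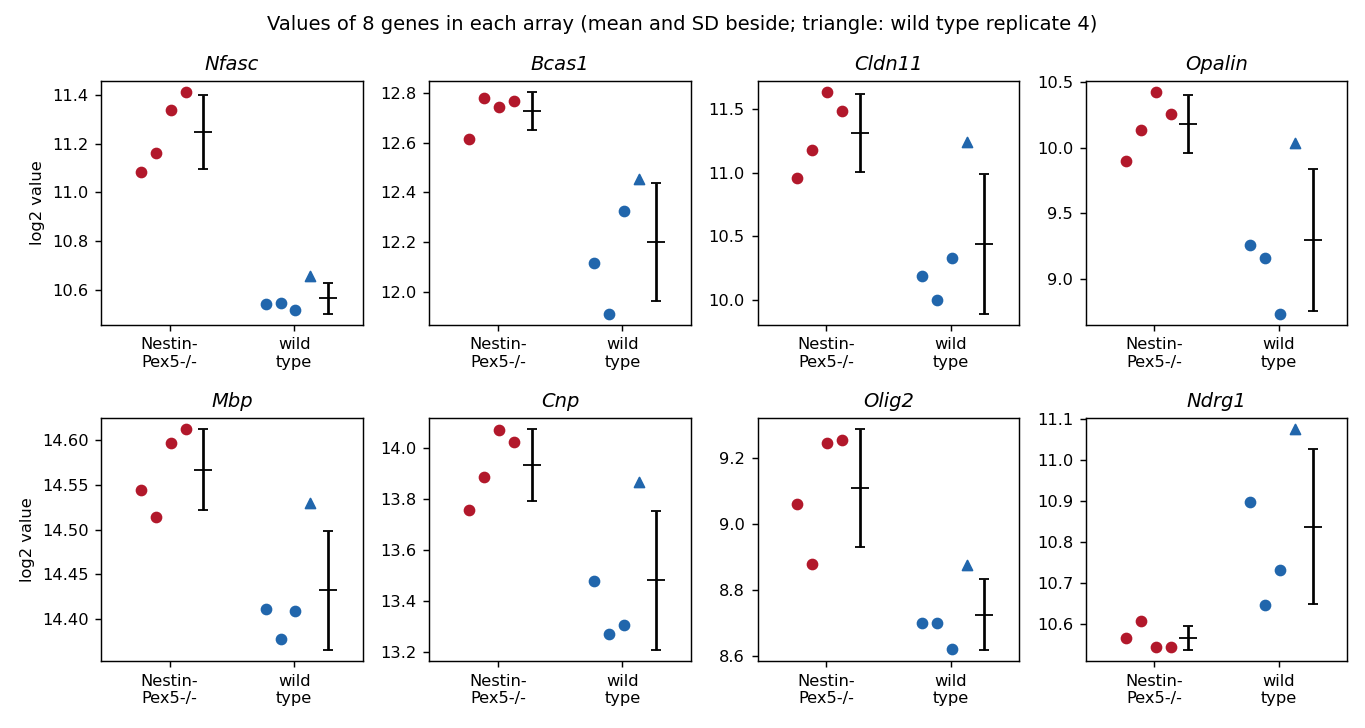
Log2 values of 8 genes in each array, with Nestin-Pex5-/- on the left and wild type on the right of each panel, the mean and SD beside the points (n = 4 arrays each), and a triangle for wild type replicate 4. In Nfasc, Bcas1 and Olig2 all Nestin-Pex5-/- arrays were above, and in Ndrg1 below, all wild type arrays, while in Cldn11, Opalin, Mbp and Cnp the triangle reached into the range of the Nestin-Pex5-/- arrays.

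Most of the 35 genes had further probe sets, which read other parts of the same transcripts and were not used for the counts above. In all, 80 probe sets were assigned to these genes, 21 of which had several. Fitted over all 34958 probe sets with 1 gene, 4 of the 80 were higher on all 8 arrays, against 3.0% of all probe sets, and 0 were lower by limma, against 0.472%. By the unadjusted p, 42 were higher and 6 were lower, against 1611 and 1457 of all 18194 genes. On 7 arrays, without wild type replicate 4, 36 of the 80 were higher, against 4.96%, and 0 were lower, against 1.67%. The unadjusted p then gave 55 higher and 4 lower, against 2160 and 1647 of all 18194 genes. These unadjusted shares were taken over genes, not over probe sets. Probe sets of 1 gene share their RNA, so they are no independent evidence.

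Nfasc accounted for 2 of the 4 probe sets, with log2 fold changes of 0.68 and 0.36 (adjusted p = 0.0012 and 0.034), and the dimmest one was at 0.64 (adjusted p = 0.19), with wild type replicate 4 at 7.42 and wild type replicates 1 to 3 at 8.29 to 8.54. The others were the main probe set of Bcas1 and the dimmer one of Evi2a, which at 0.91 (adjusted p = 0.017) differed from the main one at 0.25. The 2 dim probe sets of Bcas1 were at -0.04 and 0.09. The 8 probe sets of Mbp ranged between -0.12 and 0.35, and 5 of the 6 bright ones were higher without wild type replicate 4 (adjusted p between 0.020 and 0.044), the brightest being the one that was not. Cnp was at 0.71 and 0.76 in its further 2 probe sets, above the 0.45 of the brightest one. The probe sets of Ndrg1 were all 5 negative, between -0.31 and -0.25. In 4 genes the probe sets differed in sign on all 8 arrays, Cntn2 among them, at 0.07 in the brightest and between -0.20 and -0.13 in the other 3.

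**Figure D4:**
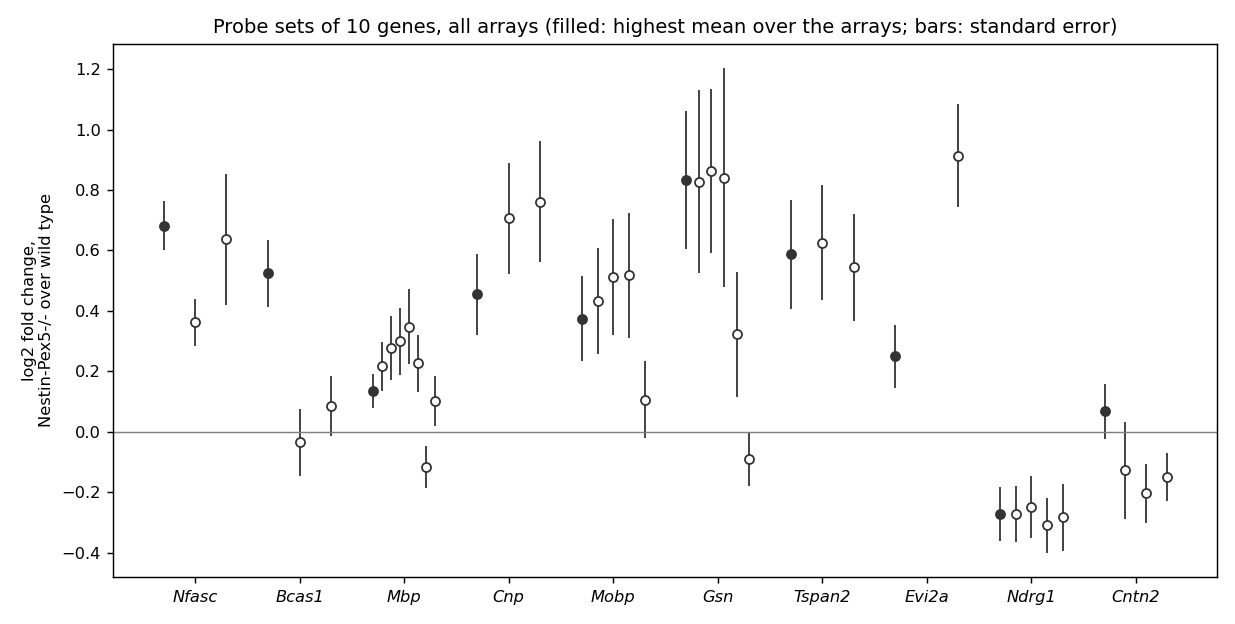
Log2 fold change, Nestin-Pex5-/- over wild type, of each probe set of 10 genes on all 8 arrays, with bars for the standard error and the probe set of highest mean level filled. The 5 probe sets of Ndrg1 lay below 0 and the 3 of Nfasc above it, while those of Bcas1, Mbp, Gsn and Cntn2 lay on both sides of 0.

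Other genes of the lineage were counted beside the set. For these and the later lists, the shares over all genes were 3.98% higher and 0.791% lower on all 8 arrays. Without wild type replicate 4 they were 5.94% and 1.82%. By the unadjusted p, 1611 were higher and 1457 lower of 18194 genes on all 8 arrays. Without wild type replicate 4 these numbers were 2160 and 1647. Of 27 further myelin and oligodendrocyte genes measured, 6 were higher and 0 were lower by limma on all 8 arrays (13 and 0 by the unadjusted p), with a median log2 fold change of 0.32. They were Cd9, a tetraspanin that astrocytes and microglia also make (2.79-fold), the protease Klk6 (2.47-fold), the deacetylase Sirt2 (1.73-fold), the arginine deiminase Padi2 (1.71-fold), the semaphorin Sema4d (1.55-fold) and the cytokine Il33 (1.48-fold). Without wild type replicate 4, 14 of the 27 were higher. Of 11 genes of committed oligodendrocyte precursors, 3 were higher, namely the receptor Gpr17 (1.92-fold), the calcium channel Itpr2 (1.43-fold) and Rras2 (1.29-fold), with a median of 0.26, and 4 were higher without wild type replicate 4. Of 16 genes of oligodendrocyte precursors, only the matrix protein Matn4 was higher (1.55-fold), with a median of 0.08, and 1 was higher without wild type replicate 4, while Pdgfra, their defining receptor, was at 0.17 (adjusted p = 0.33).

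Among 13 further enzymes of galactolipids and ceramides, Gltp, a glycolipid transfer protein, rose 1.90-fold and Elovl1, which elongates very long chain fatty acids, rose 1.65-fold, and the median was 0.05. The ceramide synthase Cers2 (1.33-fold, adjusted p = 0.0084) and the desaturase Degs1 (1.17-fold, adjusted p = 0.043) also rose when wild type replicate 4 was left out. Of 12 partners of myelin at the node and paranode of the axon, Nrcam and Ncan rose, by 1.17-fold and 1.26-fold, with a median of 0.01, and 2 were higher without wild type replicate 4. Of 12 genes of neurons and axons none passed by limma on all 8 arrays, while 1 was higher and 3 were lower by the unadjusted p. On the 7 arrays without wild type replicate 4, the neurofilament gene Nefh rose 1.32-fold (adjusted p = 0.043), and Gad1 and Gad2, which make GABA, fell to 0.743-fold and 0.742-fold (adjusted p = 0.025 and 0.029). Among 6 genes of Schwann cells, the myelinating cells of peripheral nerve, none passed (1 higher and 0 lower by the unadjusted p, and 0 higher and 1 lower without wild type replicate 4), and their mean level was 5.96 to 6.06 in the Nestin-Pex5-/- arrays, against 5.73 in wild type replicate 4 and 6.10 to 6.22 in wild type replicates 1 to 3.

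Among the marker lists of other cells, the microglia and macrophage list differed most between the genotypes. Over 14 microglia and macrophage genes the mean level was 10.15 to 10.48 in the Nestin-Pex5-/- arrays, against 8.11 in wild type replicate 4 and 7.87 to 8.06 in wild type replicates 1 to 3. Of 10 astrocyte genes 3 were higher, Gfap (6.76-fold), Vim (2.45-fold) and Aqp4 (2.15-fold), while the median log2 fold change of the 10 was 0.14 and Slc1a3 and Glul were at -0.13 and -0.05. The mean level of these genes, to which those 3 contributed most, was 12.02 to 12.19, against 11.66 in wild type replicate 4 and 11.40 to 11.54 in wild type replicates 1 to 3. Without wild type replicate 4, 4 astrocyte genes were higher, S100b (1.32-fold, adjusted p = 0.0043) being the further one. Neither the meningeal fibroblast genes nor the thalamus genes gave a call by limma on all 8 arrays. By the unadjusted p, 0 meningeal genes were higher and 1 was lower, and 1 thalamus gene was higher and 0 were lower. Leaving out wild type replicate 4 gave no call in these 2 lists either (0 higher and 1 lower, and 3 higher and 0 lower, by the unadjusted p). The choroid plexus genes gave no call on all 8 arrays (median log2 fold change -0.18). Without wild type replicate 4, 2 of the 9 were lower, against 1.82% of all genes, and 0 were higher. By the unadjusted p 6 were then lower and 0 higher, and the median was -0.49. Of 14 hypothalamus marker genes, 13 had a negative log2 fold change (median -0.20), against 11226 of all 18194 genes (median -0.03). The transcription factor Nkx2-1 fell by 0.32 on the log2 scale (adjusted p = 0.037). The mean level of the 14 genes was 9.40, 9.09, 8.87 and 8.87 in Nestin-Pex5-/- replicates 7 to 10, against 9.35, 9.36, 9.01 and 9.34 in wild type replicates 1 to 4. Nestin-Pex5-/- replicates 9 and 10, the lowest here, were the highest arrays in the mean of the 35 myelin and oligodendrocyte genes, and Nestin-Pex5-/- replicate 7, the highest here, was the lowest of its genotype there. The wild type arrays did not show this inverse order. Wild type replicate 3, their lowest here, was at 10.32 in the mean of the 35 genes, beside 10.31 in replicate 2. Wild type replicate 4, at 9.34 here, was their highest there, at 10.87. Several genes of the set are not made by oligodendrocytes alone, such as Gsn and Car2. The part of these other cells and of the dissection in the levels of the myelin and oligodendrocyte genes was not tested.

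**Figure D5:**
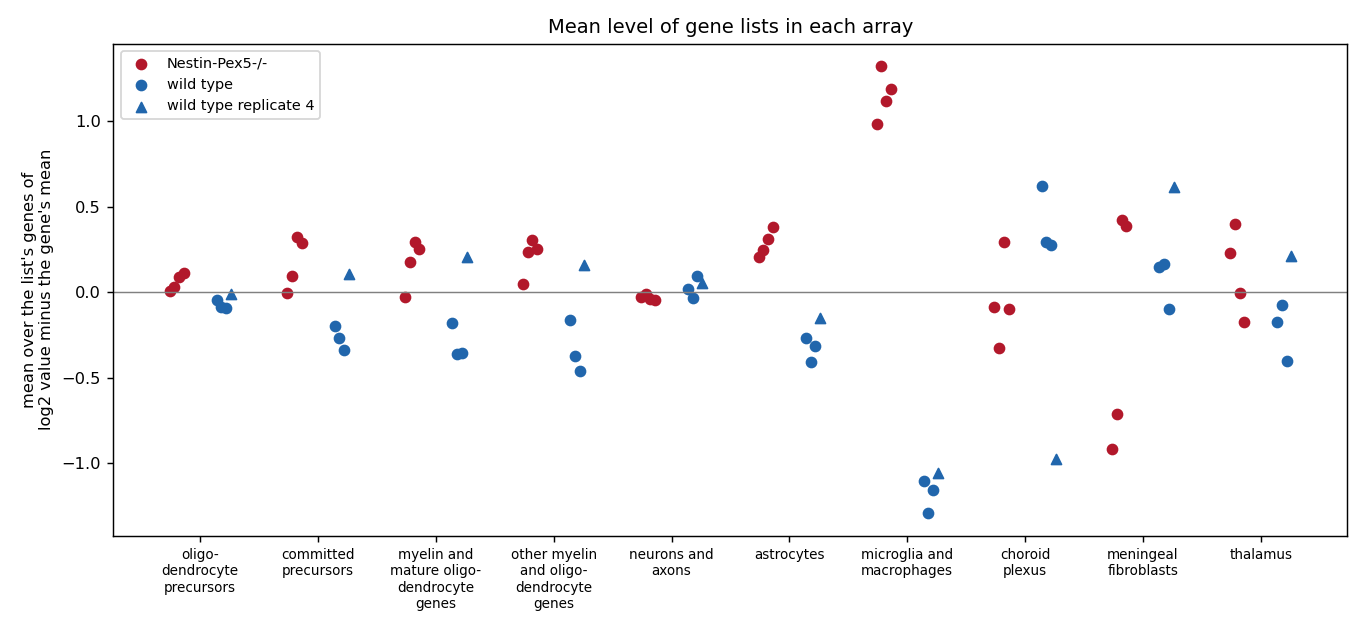
Mean over the genes of each of 10 lists of the log2 value minus the gene's mean over 8 arrays, for each array (Nestin-Pex5-/- left in red, wild type right in blue, triangle for wild type replicate 4). Over the 35 myelin and mature oligodendrocyte genes wild type replicate 4 (0.20) lay among the Nestin-Pex5-/- arrays (-0.03 to 0.29), whereas over the microglia and macrophage genes it lay beside wild type replicates 1 to 3.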

How the data were processed

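RNA of the hypothalamus of each mouse was hybridised to 1 Affymetrix mouse expression array. The deposited log2 values had been made by the authors with RMA, of which no version is given; it corrects background, normalizes arrays to a common distribution and summarises probes. Background shares of dim probe sets are unknown, since no measure of signal over background was used. Of 45101 probe sets, 34958 were assigned to 1 gene by the platform annotation, 932 to several and 9211 to none; 34754 symbols were updated through gene identifiers of RefSeq. Each gene was represented by its probe set of highest mean over the 8 arrays, with no filter on level, which left 18194 genes.

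The comparison of genotypes used lmFit and eBayes of limma 3.58.1 (R 4.3.3) at default settings, two-sided, with Benjamini-Hochberg adjustment over all genes and a threshold of 0.05, on 8 arrays and on 7 without wild type replicate 4. The code was tested on simulated data. Litters and batches are not given in the sources used here. The limma p-values set the difference between genotypes against the spread between mice within each genotype, moderated across genes. A litter or batch that followed genotype could not be told apart from it. Exact two-sided permutation tests ran over 70 assignments. Arrays give no counts, so the number of arrays limits the precision. Values of every array were given for Mbp, Cnp, up to 12 genes past the threshold in either comparison by absolute log2 fold change, and at least the brightest gene of each role; from other lists, up to 4 genes past the threshold. Ndrg1, Olig2 and genes named for a count were added after their values were seen. The genes and lists were chosen with earlier results of these data known. Promoters came from the RefSeq table of GRCm38.p6. Alternatives concerned the probe set, scaling, variance model, array weights, threshold, test and arrays used. The plots were made in Python 3.11.15 with matplotlib 3.10.9.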

Additional observations from a re-analysis of the deposited data

Results flagged for a closer look

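In 4 of 70 groups of 4 arrays (35 genes in 2 genotypes) the highest or lowest array lay apart from the other 3 by more than the critical value of Dixon's gap test, which chance gives in about 1 of 20 groups. Wild type replicate 4 was high in 2 of them, with Tspan2 at 12.05, where wild type replicates 1 to 3 had 11.36 to 11.46, and Qdpr at 13.45, where they had 13.20 to 13.23. Nestin-Pex5-/- replicate 7 was low for Car2, at 12.50, where replicates 8 to 10 had 12.65 to 12.67. Wild type replicate 2 was low for Hapln2, at 8.12, where the other 3 had 8.42 to 8.46.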

How the results depend on the processing

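The number of myelin and oligodendrocyte genes higher in Nestin-Pex5-/- hypothalamus, 2 with all arrays and default settings, was 22 when arrays were weighted by their agreement (wild type replicate 4 had the lowest weight, 0.27), and 1 at an adjusted p under 0.01 or by the Student test. It ranged between 1 and 17 when each array was left out in turn, with 4 without Nestin-Pex5-/- replicate 7 and 17 without wild type replicate 4. It was 2 or 3 under the other settings, and Olig2 was the third gene where dim genes were left out, where arrays were scaled to 7 measured reference genes, and with trend and robust settings. Averaging probe sets ended the call of Bcas1 (adjusted p = 0.12) and gave Evi2a instead. Of all genes, 1351 were higher with array weights and 467 at an adjusted p under 0.01. The lower genes numbered 1086 when scaled to Actb, 699 with array weights, 20 at an adjusted p under 0.01 and 72 by the Student test. Leaving out each array gave 543 to 1080 higher and 46 to 331 lower genes. Lower genes of the set numbered 1 when scaled to Actb (Ndrg1) and between 0 and 1 when each array was left out (Nkx6-2 without wild type replicate 3). Scaled to Actb, the median log2 fold change of all genes was -0.16, against -0.03 with default settings, and Actb itself was at 0.13 (adjusted p = 0.27).

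Without wild type replicate 4, the count of 17 genes was 26 with array weights, 11 at an adjusted p under 0.01 and 6 by the Student test, only 4 of them among the 17, and 13 to 23 when a further array was left out. These alternatives on 7 arrays were added after the data were seen. Of the 80 probe sets, 4 were higher with default settings, 43 with array weights, 2 when scaled to Actb, and 1 at an adjusted p under 0.01 or by the Student test, with 1 to 36 when each array was left out.

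Only log2 fold changes near 0 changed sign. When scaled to Actb, Qdpr was at -0.025 and Cntn2 at -0.059, and Cntn2 was at -0.10 with averaged probe sets. When scaled to reference genes, Hapln2 was at 0.0012 and Anln at 0.020. With each array left out in turn, Cntn2 ranged between -0.0082 and 0.15 (negative without wild type replicate 3), Hapln2 between -0.11 and 0.0069 (positive without Nestin-Pex5-/- replicate 9, wild type replicate 1 or wild type replicate 4) and Anln between -0.089 and 0.057 (positive without Nestin-Pex5-/- replicate 7 or 9, wild type replicate 1 or wild type replicate 4). The cause was not tested. No paired analysis was possible because the genotypes share no replicate number.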
